A study of Rattus norvegicus with 4 samples.

Results

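The enzymes that build cholesterol from acetyl-CoA, and the protein that holds their shared switch in check, were followed here through the cell types of the rat anterior pituitary gland. The 7 genes are *Hmgcs1*, *Idi1*, *Fdps*, *Sqle*, *Cyp51*, *Msmo1* and *Insig1*. They were chosen by symbol, and all 7 were found among the 30058 genes of the count table, of which 24495 had at least 1 transcript. The set had been put together under the name of cholesterol synthesis and uptake, but none of the 7 encodes an uptake protein, so uptake and transport genes are counted separately, as another list of the pathway.

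Cholesterol synthesis runs from acetyl-CoA through mevalonate to isoprenoid diphosphates, then to squalene, and last through a series of sterols. *Hmgcs1* encodes the cytosolic synthase that makes HMG-CoA, from which mevalonate is formed. *Idi1* encodes isopentenyl diphosphate isomerase and *Fdps* farnesyl diphosphate synthase, whose product is also used for protein prenylation. *Sqle* encodes squalene epoxidase, *Cyp51* the sterol demethylase that acts on lanosterol, and *Msmo1* a methylsterol monooxygenase that acts after it. *Insig1* encodes an endoplasmic reticulum protein that retains the SCAP and SREBP complex when sterols are plentiful. When sterols are scarce, SREBP2, encoded by *Srebf2*, is released, is processed in the Golgi and activates these genes, *Insig1* among them. In hormone-producing cells (HPC), cholesterol is also needed for the membranes of secretory granules.

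SREBP2 is known to work at promoters together with NF-Y, which binds CCAAT, and Sp1, which binds GGGCGG. To show what the genes share upstream, the 200 bases before the start of 5 of them are printed, taken from RefSeq (assembly GRCr8, which is later than the annotation used for counting), 5′ to 3′ on the gene's strand. Capitals mark CCAAT or its complement ATTGG. *Hmgcs1*, *Idi1* and *Msmo1* are shown because they were the 3 enzymes whose levels differed most between the sexes in somatotrophs. *Fdps* is shown because it had the most transcripts, and *Cyp51* because it was not called between the sexes in lactotrophs.
Hmgcs1 (chr2:53382104-53382303, plus strand): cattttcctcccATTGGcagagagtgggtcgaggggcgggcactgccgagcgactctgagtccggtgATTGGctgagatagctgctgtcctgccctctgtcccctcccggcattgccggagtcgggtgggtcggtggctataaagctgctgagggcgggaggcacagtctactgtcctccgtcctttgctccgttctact
Idi1 (chr17:66547525-66547724, minus strand): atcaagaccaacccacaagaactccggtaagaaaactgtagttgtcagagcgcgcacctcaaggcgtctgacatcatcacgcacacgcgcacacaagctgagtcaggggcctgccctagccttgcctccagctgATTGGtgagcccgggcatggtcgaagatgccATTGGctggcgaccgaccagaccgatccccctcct
Msmo1 (chr16:29746913-29747112, plus strand): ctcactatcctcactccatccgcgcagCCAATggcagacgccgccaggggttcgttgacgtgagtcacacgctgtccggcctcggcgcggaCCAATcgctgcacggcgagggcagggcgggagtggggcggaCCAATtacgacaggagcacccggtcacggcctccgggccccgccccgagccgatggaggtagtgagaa
Fdps (chr2:176804817-176805016, minus strand): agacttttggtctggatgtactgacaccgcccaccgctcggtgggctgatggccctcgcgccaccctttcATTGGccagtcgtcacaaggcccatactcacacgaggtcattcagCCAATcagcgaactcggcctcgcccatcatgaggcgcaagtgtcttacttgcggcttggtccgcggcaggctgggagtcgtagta
Cyp51 (chr4:30991493-30991692, plus strand): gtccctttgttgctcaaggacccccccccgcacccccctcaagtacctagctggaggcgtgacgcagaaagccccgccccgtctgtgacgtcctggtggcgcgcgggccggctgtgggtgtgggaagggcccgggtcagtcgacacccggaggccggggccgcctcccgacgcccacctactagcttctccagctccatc
RefSeq promoters were matched for 6 of the 7 genes, all but *Sqle*. Counting both strands of the 250 bases before the start, CCAAT was found in 5 of the 6 (not in *Cyp51*) against 34.0% of 33469 rat promoters. GGGCGG was found in 5 of the 6 (not in *Idi1*) against 30.5%. The E-box CACGTG occurred in 1 of the 6, *Insig1*, against 5.59%, and the sterol element letters TCACNCCAC in 0 of the 6 against 0.974%. *Msmo1* had 3 copies of CCAAT, their first bases 173, 109 and 68 bases before the start, and *Hmgcs1*, *Idi1* and *Fdps* had 2 each. These matches are letters in a window, and no binding was measured here.

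The cells came from postpubertal Sprague Dawley rats: 1 pool of 4 pituitaries from females in diestrus on postnatal day 44 and 1 pool of 4 from males on postnatal day 59. Each pool was dispersed and loaded on 2 lanes of a droplet device, and transcripts were counted as unique molecular identifiers (UMIs) at the 3′ end. The 2 lanes of a sex are technical replicates of 1 pool, so p-values between the sexes measure the spread between lanes, those between types the spread between the female and the male sums, and sex, pool and age cannot be told apart. Lanes are named by their cells: 1868 and 1861 in the female lanes, 2047 and 2085 in the male lanes. Where 4 values follow each other below, they stand in that order.

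The lanes held 18955509 to 24048021 UMIs, with medians of 7971 to 9413 UMIs per cell, and transcripts of 3 Y-linked genes numbered 9 and 10 in the female lanes against 2277 and 2378 in the male lanes. Of the 7861 cells, 6846 were kept after the study's rules for marker genes, outliers and doublets were applied again. They comprised 2315 folliculostellate cells (FSC), 795 corticotrophs (C), 237 gonadotrophs (G), 88 thyrotrophs (T), 1886 somatotrophs (S), 485 lactotrophs (L), 546 leukocytes (Le), 133 endothelial cells (EC) and 361 erythrocytes (E). Across lanes, the growth hormone gene *Gh1* took 27.5 to 31.4% of the UMIs of S and the prolactin gene *Prl* took 17.5 to 32.0% of those of L. The median depth per cell differed between the sexes in L (18301 UMIs in female and 7214.5 in male cells), T (6270 and 13034), G (12451 and 8858) and S (11572 and 15463.5). The lanes share 30 barcode sequences.

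In the kept cells, *Fdps* gave 4666 UMIs, *Idi1* 3592, *Msmo1* 2838, *Insig1* 2657, *Hmgcs1* 2012, *Cyp51* 1610 and *Sqle* 979. Levels are given as UMIs per 1000000 UMIs summed over the cells of a type in a lane (CPM), and each gene was compared with itself across types. RefSeq lists processed copies of *Fdps*, *Idi1* and *Cyp51*, to which reads could have been lost, so the levels of these 3 genes are less certain.

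Thyrotrophs, the cells that make thyroid-stimulating hormone, had the highest mean level of 6 of the 7 genes, the exception being *Cyp51*, which was highest in S. *Hmgcs1* in T was 56.1, 135.7, 63.1 and 66.1 CPM, a mean of 80.3 ± 37.2 (SD, n = 4 lanes), and every lane lay above every lane of S, next in order at 37.2 CPM. *Msmo1* in T was 88.2, 111.0, 98.5 and 115.7 CPM, again above all lanes of the next type, C at 49.6 CPM. For *Idi1* the T lanes read 56.1, 209.7, 93.4 and 19.8 CPM, a spread so wide that they overlapped those of S and of most other types. T is the smallest type, with 18, 19, 28 and 23 cells per lane, and its female lane of 19 cells held the highest *Hmgcs1*, *Idi1* and *Insig1* of any lane. The low end was held by leukocytes for *Hmgcs1* (9.23 CPM), *Idi1* (26.7), *Fdps* (37.9) and *Msmo1* (15.96), by EC for *Sqle* (1.70) and *Cyp51* (13.3), and by G for *Insig1* (10.98). In the order of types, neighbours did not overlap in 4 cases only: T over S for *Hmgcs1*, T over C and C over FSC (49.6 over 42.2 CPM) for *Msmo1*, and FSC over Le (12.4 over 3.05 CPM) for *Sqle*. All other neighbours overlapped over their lanes.

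**Figure D1:**
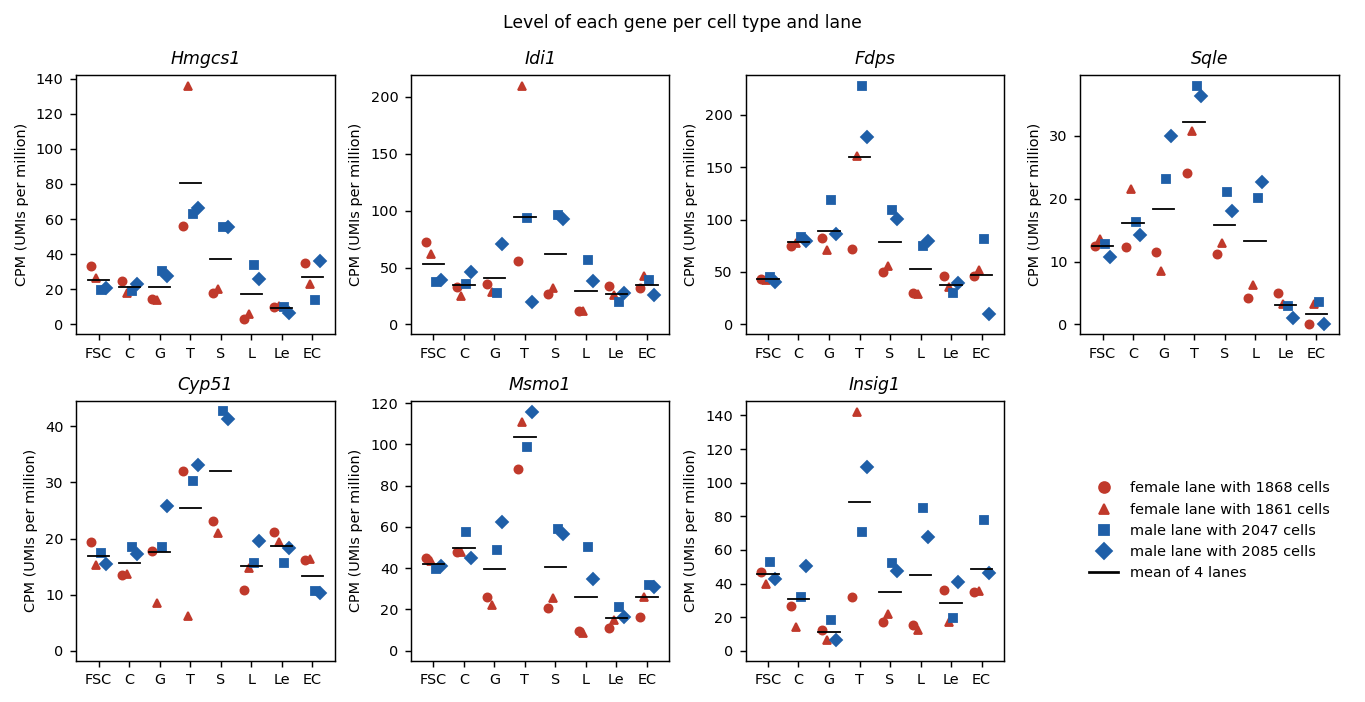
Level of each of the 7 genes in CPM (UMIs per 1000000, linear axis) in 8 cell types, with 1 point per lane (red female, blue male) and a black bar for the mean of 4 lanes. Thyrotrophs have the highest bar in every panel but that of *Cyp51*, and the blue points lie above the red ones in somatotrophs.

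Erythrocytes, which carry hemoglobin and have lost most of their other transcripts, gave the background. No UMI of *Hmgcs1*, *Idi1*, *Sqle*, *Cyp51* or *Insig1* was found in 361 E, which allows a share of up to 0.831% of cells. *Fdps* was found in 5 E (1.39%, exact 95% Clopper-Pearson interval 0.451 to 3.20%) and *Msmo1* in 1 (0.277%). Globin filled 65.6% of the UMIs of E, and their median depth without globin was 2751 UMIs against 6481.5 or more in each other type. Intervals and limits of this kind cover counting error only.

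The share of cells with at least 1 UMI, averaged over the 7 genes, was 40.6% in T, 10.9% in Le and 0.237% in E. For *Fdps* it was 62.5% in T, 57.9% in C, 55.7% in S, 54.4% in G, 40.6% in L, 33.1% in EC, 28.6% in FSC and 21.3% in Le. The *Sqle* share ran from 27.3% in T (18.3 to 37.8%) to 1.83% in Le (0.882 to 3.34%) and 1.504% in EC (0.183 to 5.33%). These shares depend on depth. With every cell thinned to 2000 UMIs the average over the genes was 11.2% in T, 3.45% in Le and 0% in E. *Fdps* fell to 26.1% in T and 13.0% in S. *Sqle* fell to 0% in T and in EC, against 4.64% in G and 2.49% in S. T therefore no longer had the highest *Sqle* share in this thinning, which was 1 random draw per cell and was not repeated. Before thinning, T held 34 *Sqle* UMIs in 88 cells. Its lanes ran from 24.05 to 37.88 CPM, against maxima of 30.01 in G and 21.15 in S. With so few UMIs, no order of types is drawn from the 0%.

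To ask whether a gene was higher or lower in one type than in the others, sums of UMIs per type within each sex were used, and each of 8 types (without E) was compared with the mean of the other 7 by edgeR's quasi-likelihood test, with p adjusted over 13606 genes by the method of Benjamini and Hochberg (limit 0.05). Differences are log2 values with the standard error. Of 56 tests on the 7 genes, 10 were called higher and 6 lower.

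In thyrotrophs, 5 of the 7 genes were called higher, while 11.5% of all genes tested were. The median difference of the 7 was 1.34, against -0.01 for all genes. *Sqle* was higher by 1.76 ± 0.42 (adjusted p = 0.0085), *Hmgcs1* by 1.75 ± 0.44 (adjusted p = 0.012), *Msmo1* by 1.51 ± 0.30 (adjusted p = 0.0026), *Fdps* by 1.34 ± 0.22 (adjusted p = 0.00062) and *Insig1* by 1.32 ± 0.31 (adjusted p = 0.0088). Thus enzymes of the early, isoprenoid, squalene and sterol steps and the regulator were all among them. *Idi1* (1.11 ± 0.44, adjusted p = 0.10) and *Cyp51* (0.38 ± 0.35, adjusted p = 0.55) did not pass. Without the female lane with 1861 cells, *Hmgcs1* (1.31, adjusted p = 0.086) and *Insig1* (0.81, adjusted p = 0.17) were no longer called.

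In somatotrophs, the growth hormone cells, 5 of the 7 were also called higher, against 22.6% of all genes. The median of the 7 was 0.93 and that of all genes 0.10. *Cyp51*, with lanes of 23.1, 21.1, 42.7 and 41.2 CPM, was higher by 1.23 ± 0.20 (adjusted p = 0.00022), *Sqle* by 1.09 ± 0.28 (adjusted p = 0.0071), *Hmgcs1* by 1.02 ± 0.32 (adjusted p = 0.022), *Idi1* by 0.93 ± 0.32 (adjusted p = 0.038) and *Fdps* by 0.61 ± 0.19 (adjusted p = 0.021). *Msmo1* (0.47, adjusted p = 0.15) and *Insig1* (0.26, adjusted p = 0.47) did not pass. By mean CPM, S ranked 4 for *Sqle* (15.9, after T, G at 18.3 and C at 16.1). It also ranked 4 for *Fdps* (78.7, after T, G at 89.4 and C at 78.8). The lanes of G, C and S overlapped for both genes, and neither gene was called in G or C. The S calls depended on scaling: with library size in place of TMM factors the median of all genes in S moved to -0.26, the share of higher among all calls went from 68.6% to 39.6%, and 1 of the 5 calls, *Cyp51*, was kept, while T kept 5 of 5. Hormone transcripts took 30.2% of the UMIs of S. By DESeq2, 2 of the 5 S calls were kept, with *Hmgcs1* (adjusted p = 0.11), *Idi1* (adjusted p = 0.14) and *Fdps* (adjusted p = 0.079) lost.

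Lower levels were called in 4 types. FSC, the non-hormonal support cells, had less *Fdps* (43.5, 42.8, 45.0 and 40.7 CPM), by 0.97 (log2 difference -0.97 ± 0.21, adjusted p = 0.0018), in an arm where 12.3% of all genes were called lower. Gonadotrophs had less *Insig1*, at 12.6, 6.34, 18.6 and 6.43 CPM (-2.01 ± 0.38, adjusted p = 0.0011, with 6.76% of all genes called lower), and none of the other 6 genes was called there. Thus the regulator was low in a type whose mean *Fdps* level (89.4 CPM) stood next to that of T. In leukocytes *Sqle* (4.98, 3.24, 2.92 and 1.08 CPM, -1.59 ± 0.53, adjusted p = 0.020) and *Msmo1* (11.2, 15.1, 21.4 and 16.1 CPM, -0.93 ± 0.33, adjusted p = 0.028) were lower, where 22.8% of all genes were called lower. Neither Le call was kept without the male lane with 2085 cells (adjusted p = 0.057 and 0.11). With T left out of the fit, neither Le call was kept either, while the lower calls in FSC, G and EC were. Endothelial cells had lower *Fdps* (45.8, 52.1, 81.5 and 10.3 CPM, -0.86 ± 0.27, adjusted p = 0.020) and *Sqle* (adjusted p = 0.0037, from 2 UMIs in 133 cells), with 18.6% of all genes lower. The EC call on *Fdps* rested on the male lane with 2085 cells, which held 2 of its UMIs in 23 cells, and was -0.52 (adjusted p = 0.17) without it. With E kept in the fit, the *Insig1* call in G (-0.79, adjusted p = 1) and both calls in Le (*Sqle*, adjusted p = 1, *Msmo1*, -0.66, adjusted p = 0.28) and in EC (*Sqle*, adjusted p = 1, *Fdps*, -0.71, adjusted p = 0.065) were lost.

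Corticotrophs and lactotrophs had no call among the 7, with 31.1% and 26% of all genes called in either direction. At an unadjusted p below 0.05, 1 gene was higher in C (*Sqle*, 0.75 ± 0.31, unadjusted p = 0.028) and 0 differed in L, and DESeq2 called 0 of the 7 in either. With library size in place of TMM, the share of higher among all calls also moved from 69.4 to 83.1% in T, 69.7 to 85.4% in FSC, 70.6 to 81.8% in G, 71 to 46.2% in L, 53.7 to 37.6% in Le and 52.6 to 74.4% in EC.

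**Figure D2:**
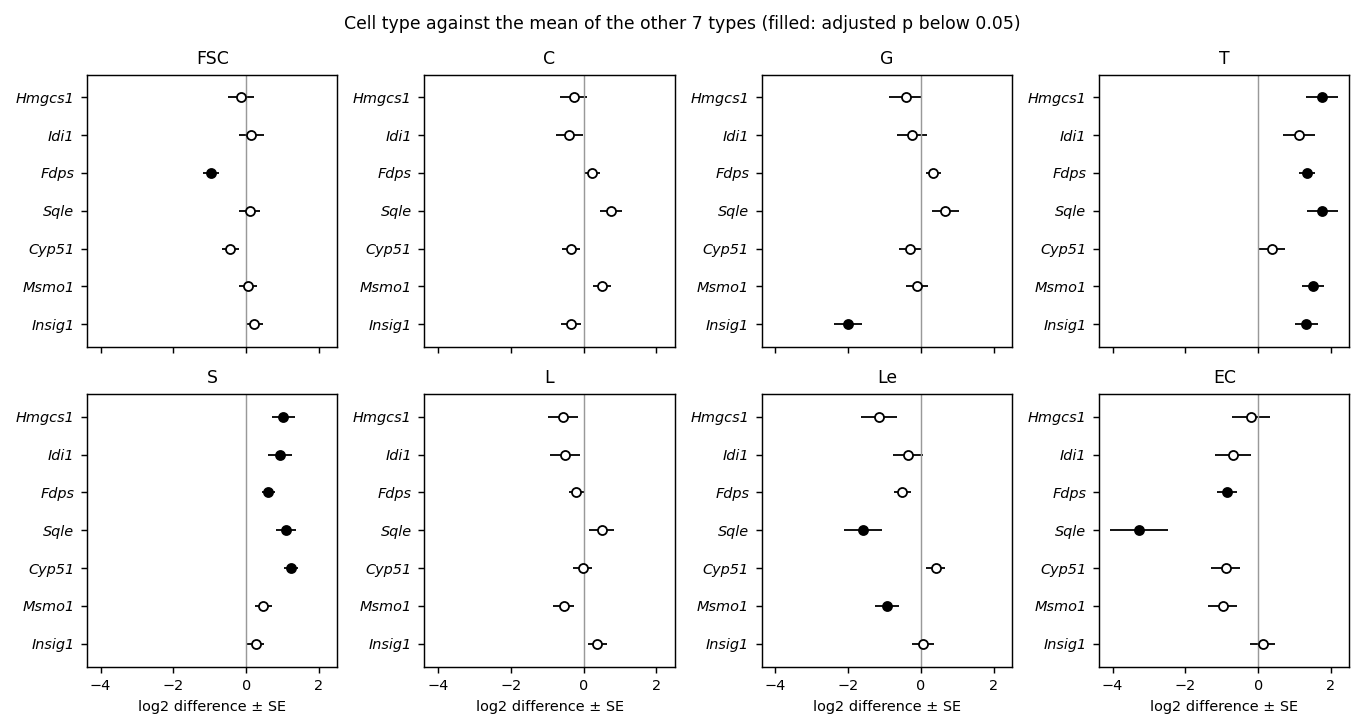
Log2 difference with its standard error between each cell type and the mean of the other 7 types, 1 panel per type and 1 row per gene, filled where the adjusted p was below 0.05. Filled points lie to the right in thyrotrophs and somatotrophs (5 each) and to the left in folliculostellate cells, gonadotrophs, leukocytes and endothelial cells (6 in all).

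The mean over the sexes hid a difference between them in S. All 7 genes were higher in male than in female somatotrophs, and for each of them both male lanes lay above both female lanes. The log2 difference had a median of 1.26 over the 7 genes and 0.01 over all 11925 genes tested, of which 13.5% were called higher in males. *Hmgcs1* was 17.6 and 20.1 CPM in the female lanes and 55.5 and 55.4 in the male lanes (1.49 ± 0.11, adjusted p = 1.4e-14). *Idi1* was 27.0 and 32.0 against 96.4 and 92.6 CPM (1.62 ± 0.09, adjusted p = 4.4e-18), which is a 3.08-fold difference. *Fdps* went from 49.6 and 56.0 to 108.7 and 100.4 CPM (0.93 ± 0.08, adjusted p = 1.6e-12). Thus among the isoprenoid genes the estimate for *Idi1* was the larger, a contrast between genes that was not itself tested.

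For the later steps, *Sqle* was 11.3 and 12.9 CPM in female and 21.2 and 18.1 CPM in male S (0.64 ± 0.15, adjusted p = 0.0016). *Cyp51* was 23.1 and 21.1 against 42.7 and 41.2 CPM (0.87 ± 0.11, adjusted p = 2.9e-08). *Msmo1* was 20.6 and 25.7 against 59.1 and 56.8 CPM (1.26 ± 0.10, adjusted p = 8.9e-13). The regulator *Insig1* moved with the enzymes, from 17.3 and 22.2 to 52.3 and 47.5 CPM (1.28 ± 0.11, adjusted p = 8.1e-12). By DESeq2, 6 of the 7 calls were kept, and *Sqle* was not (0.63, adjusted p = 0.13). Summed over the 7 genes, female S held 166.4 and 189.8 CPM and male S 435.8 and 412.2 CPM. With each cell thinned to 2000 UMIs the sums were 0.325 and 0.406 UMIs per female cell against 0.854 and 0.790 per male cell. In summed CPM of all UMIs, female S therefore stood below FSC (210.7 to 273.0 CPM over the lanes) and male S above it. Hormone transcripts took 28.4% of the UMIs of female S and 0.481% of those of female FSC, which lowers the CPM of other genes in S. Thinned FSC held 0.540, 0.538, 0.392 and 0.425 UMIs per cell. Female S thus overlapped the male FSC lanes there but lay below both female FSC lanes. Thinning keeps the share of hormone transcripts in a cell, so it does not remove their effect on this comparison. With hormone transcripts left out of the total, the genes went different ways. *Fdps* was 68.7 and 78.85 CPM in female S against 43.7, 43.0, 45.3 and 41.0 in FSC. *Cyp51* and *Sqle* also lay above all FSC lanes. *Insig1* was 23.9 and 31.2 CPM against 47.4, 40.1, 53.25 and 42.9, and *Msmo1* also lay below. *Hmgcs1* and *Idi1* overlapped, so female S was not lower than FSC in every gene. Prolactin transcripts in S were 0.144 and 0.140% of UMIs in the female lanes and 0.028 and 0.023% in the male lanes, near those of FSC in the same lanes, and their part in these results was not tested.

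Lactotrophs, the prolactin cells, showed the same direction in 6 of the 7 genes, with 15.1% of all 8617 genes tested called higher in males. *Hmgcs1* was 3.28 and 6.21 CPM in female and 33.9 and 25.7 CPM in male L (2.00 ± 0.35, adjusted p = 2.9e-06). *Insig1* was 15.5 and 12.4 against 85.1 and 67.9 CPM (1.81 ± 0.22, adjusted p = 2.2e-10), and *Msmo1* 9.37 and 8.61 against 50.3 and 34.99 CPM (1.60 ± 0.29, adjusted p = 3.2e-06). *Idi1* was 12.2 and 11.5 against 56.7 and 38.1 CPM (1.36 ± 0.26, adjusted p = 1.6e-05). Male lanes lay above female lanes in all of these without overlap. *Sqle* (4.22 and 6.21 against 20.1 and 22.6 CPM, 1.37 ± 0.37, adjusted p = 0.0020) and *Fdps* (29.5 and 29.2 against 75.02 and 79.2 CPM, 0.74 ± 0.19, adjusted p = 0.00099) were called as well, but not by DESeq2 (adjusted p = 0.15 and 0.092).

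*Cyp51* was the gene not called in L, at 10.8 and 14.8 CPM in female and 15.6 and 19.6 CPM in male lanes, with a scaled difference of -0.20 ± 0.32 (adjusted p = 0.67). In L the scale of CPM itself differs between the sexes: with library size only, the median of all genes was 0.67 higher in males, the share of higher among calls was 89% in place of 43.7%, and the 7 genes had a median of 2.03 in place of 1.37. The TMM values above are already relative to that shift, and the 6 calls were made under both scalings. Hormone transcripts, prolactin for the most part, were 31.9% of all UMIs in female L and 18.4% in male L. *Gh1* in L was 0.326, 0.305, 0.399 and 0.376% of UMIs. At 2000 UMIs per cell, *Hmgcs1* was found in 0.881% of female and 3.88% of male L (5.73 and 19.4% unthinned), and *Insig1* in 2.64% and 13.6% (20.7 and 29.8% unthinned). *Cyp51* was found in 1.76% of female and 5.81% of male L at that depth, the same direction, against 19.8 and 11.6% unthinned. The thinned sum of the 7 genes was 0.169 and 0.252 UMIs per cell in the female lanes and 0.746 and 0.523 in the male lanes.

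In FSC, which are not hormone-producing, 2 genes differed the other way, with 6.07% of all genes called higher in females. *Idi1* was 72.5 and 61.9 CPM in female and 37.7 and 39.3 CPM in male FSC (-0.84 ± 0.11, adjusted p = 3e-05), and *Hmgcs1* was 33.5 and 26.5 against 19.5 and 21.0 CPM (-0.60 ± 0.15, adjusted p = 0.013). Neither call was kept without the female lane with 1868 cells (-0.73, adjusted p = 0.11, and -0.43, adjusted p = 0.26). The other 5 genes lay between -0.19 (*Sqle*) and 0.10 (*Insig1*) and did not pass. Thus the 2 genes of the early steps were lower in male FSC, while *Fdps* read 43.5, 42.8, 45.0 and 40.7 CPM.

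Elsewhere single genes passed. *Insig1* was higher in male corticotrophs (26.5, 14.1, 31.9 and 50.4 CPM, 0.99 ± 0.23, adjusted p = 0.016, where 0.493% of all genes were called higher), but not without the female lane with 1861 cells (0.61, adjusted p = 0.22) or the male lane with 2085 cells (0.63, adjusted p = 0.36), nor by DESeq2 (adjusted p = 1). *Msmo1* was higher in male gonadotrophs (26.2, 22.2, 48.7 and 62.2 CPM, 0.94 ± 0.29, adjusted p = 0.042, where 6.4% were), and this call was lost without each of 3 lanes in turn: the female lane with 1868 cells (adjusted p = 0.056), the one with 1861 (0.86, adjusted p = 0.11) and the male lane with 2085 (0.76, adjusted p = 0.28). In G, library size in place of TMM moved the median of all genes to 0.27 and the share of higher among all calls from 43.7 to 74.6%, and that share also moved in S (50.8 to 61.9%), FSC (48.2 to 60.3%), C (34 to 48.7%) and T (66.4 to 45.6%). No gene of the 7 was called between the sexes in T, Le or EC, by edgeR or DESeq2, where 4.48%, 1.61% and 2.09% of all genes were by edgeR. At an unadjusted p below 0.05 these held 2 genes in T (*Idi1*, -1.10, unadjusted p = 0.016, and *Fdps*, 0.87, unadjusted p = 0.0071), 0 in Le and 1 in EC (*Insig1*, 0.83, unadjusted p = 0.047). By type and gene, 48 of 56 pairs had enough UMIs to be tested, 15 of them higher in males and 2 higher in females.

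**Figure D3:**
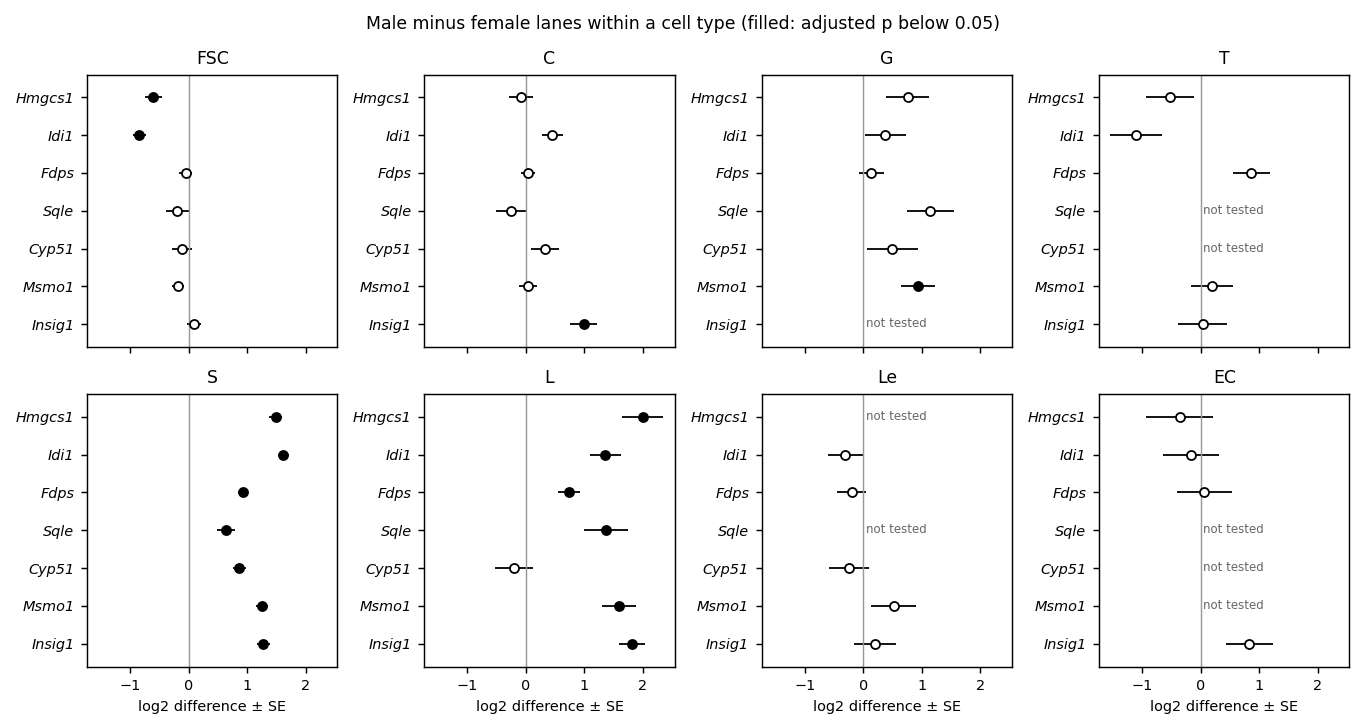
Log2 difference, male minus female lanes, with its standard error, 1 panel per cell type and 1 row per gene, filled where the adjusted p was below 0.05. All 7 points in somatotrophs and 6 in lactotrophs are filled to the right of 0, and 2 in folliculostellate cells are filled to the left.

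Whether the types themselves differed in the male to female difference was tested in 1 fit over all types and lanes, a comparison chosen after these values were seen. All 7 genes had a larger difference in S than in FSC, from 0.84 (*Sqle*, adjusted p = 0.040) to 2.47 (*Idi1*, adjusted p = 2.1e-14), while 3.87% of all genes did. In L against FSC, 6 of the 7 did, from 0.78 (*Fdps*, adjusted p = 0.018) to 2.59 (*Hmgcs1*, adjusted p = 4.3e-07), with 7.39% of all genes called, and *Cyp51* did not (-0.10 ± 0.35, adjusted p = 0.92). Between L and S, *Cyp51* was the gene called, with a difference smaller by 1.09 in L (-1.09 ± 0.33, adjusted p = 0.011, with 11.7% of all genes called in that direction). With library size only it was -0.48 (adjusted p = 0.29). For the other 6 genes the L minus S difference lay between -0.28 (*Idi1*) and 0.72 (*Sqle*), with standard errors of 0.23 to 0.42 and did not pass, which does not show that S and L were alike. With library size only, 4 genes were called between L and S, and *Cyp51* was not among them. The comparisons share the lanes of S, L and FSC.

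The lanes of 1 pool were compared over all types together, which gives technical error averaged over types and not that within a type. With cell type as a block, 0 of the 7 genes were called between the female lanes or between the male lanes by edgeR or DESeq2, while 0.998% and 0.21% of all genes were by edgeR. The largest differences were 0.32 (*Sqle*, female lanes) and 0.18 (*Sqle*, male lanes). Within single types, lanes of a pool could lie farther apart. Examples were *Idi1* in T (56.1 and 209.7 CPM in the female lanes) and *Fdps* in EC (81.5 and 10.3 CPM in the male lanes). At an unadjusted p below 0.05 there were 0 in the female and 1 in the male lanes (*Fdps*, -0.14 ± 0.07, unadjusted p = 0.035).

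How the transcripts were spread over single cells also differed. In male S, the cell in the middle held 2.76 and 2.49 UMIs of the 7 genes per 10000 UMIs (medians of the 2 lanes) and the cell at the 90th percentile 9.86 and 9.70, against medians of 1.12 and 1.49 and 90th percentiles of 3.88 and 4.34 in female S. Cells above 10 UMIs per 10000 made up 9.86 and 9.75% of male S and 0.909 and 0.459% of female S. At least 4 of the 7 genes were found in 38.6 and 38.8% of male S and in 9.32 and 11.7% of female S, at the depths given above. The 10% of cells with the most of these transcripts held 39.2 and 34.6% of them in female S and 38.7 and 37.8% in male S. Thus both the middle and the upper end were higher in male S, while the share held by these top 10% overlapped between the sexes. In lactotrophs both were higher in males too, with medians of 0.692, 0.823, 2.22 and 2.13 and 90th percentiles of 1.89, 1.76, 9.83 and 6.78. In FSC the medians were 1.90, 1.72, 1.70 and 1.67. These values were not set to equal depth. Median depth was 18301 UMIs in female and 7214.5 in male L, so 1 UMI counted for more in male L. In S the male cells were the deeper ones, so the spreads of L and S are not alike in this.

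**Figure D4:**
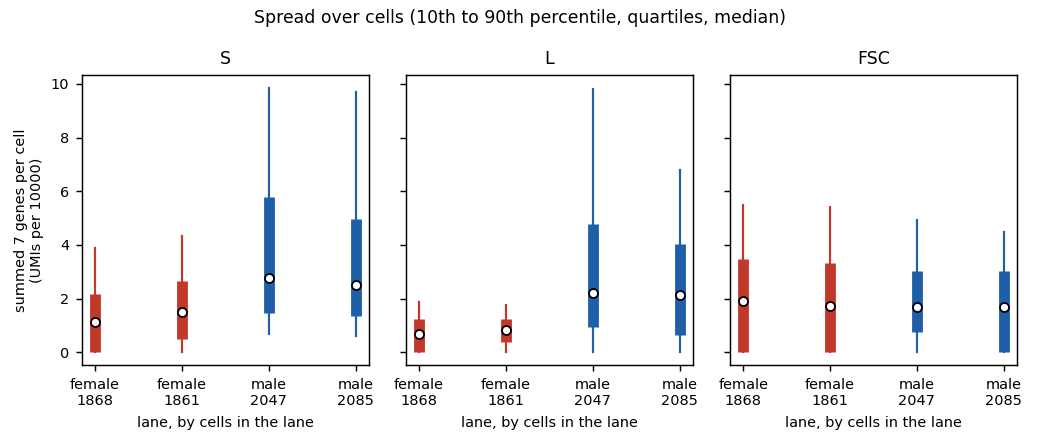
UMIs of the 7 genes per 10000 UMIs of a cell in somatotrophs, lactotrophs and folliculostellate cells, by lane (red female, blue male). Thin lines run from the 10th to the 90th percentile, thick bars over the quartiles and circles mark the median: in somatotrophs the 90th percentile is 9.86 and 9.70 in the male lanes against 3.88 and 4.34 in the female lanes.

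Within S the genes went together from cell to cell. Over the 21 pairs of the 7 genes, the median Pearson correlation of normalized values across cells of a lane was 0.268 and 0.294 in the male lanes (487 and 523 cells) and 0.111 and 0.110 in the female lanes, and all 21 pairs were positive in each lane. In L the medians were -0.00521, -0.0481, 0.0763 and 0.0786 (103 to 130 cells) and in FSC 0.0824, 0.0728, 0.0284 and 0.0253. In C they were 0.0356, 0.0647, 0.110 and 0.0769, so the C male lane with 2047 cells read as the female S lanes. Positive pairs were 18, 20, 16 and 14 of 21 in FSC and 13, 14, 17 and 18 in C. Cells of a lane share a library but differ in depth, and low counts weaken such values, so they are given as a description.

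Other enzymes of the route were compared in the same fits. Of all 11925 genes tested between the sexes in S, 1611 were higher in males and 1561 lower. Of 15 further synthesis genes, 12 could be tested between the sexes in S, and 8 were higher in males and 0 lower (median 0.59). *Fdft1*, which makes squalene, was 17.3 and 17.4 CPM in female and 30.4 and 33.7 CPM in male S (0.83 ± 0.12, adjusted p = 1e-06), and *Ebp*, a sterol isomerase of the later steps, differed by 0.49 ± 0.13 (adjusted p = 0.0033). In L, 1301 of all 8617 genes were higher in males and 1674 lower. Of the 15 further synthesis genes, 9 could be tested there, with 1 higher (*Pmvk*, 0.80) and 1 lower (*Sc5d*, -0.82). These L values, and those of the lists that follow, are relative to the shift of 0.67 given above, and library size alone was not tried for the lists.

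Of the regulators, *Srebf2* was 24.4 and 27.3 CPM in female and 43.2 and 44.5 CPM in male S (0.70 ± 0.10, adjusted p = 1.1e-06). *Srebf1* differed by 1.51 ± 0.34 (adjusted p = 0.00062). These were the 2 called of 7 tested, both higher in males, while 13.5% of all genes were called higher there. *Srebf2* was also higher in male L (13.6 and 9.08 against 43.0 and 22.6 CPM, 0.90 ± 0.30, adjusted p = 0.013) and male G (1.18 ± 0.30, adjusted p = 0.014). *Insig2*, the homolog of *Insig1*, read 46.7, 41.0, 46.9 and 48.2 CPM in S (0.06 ± 0.09, adjusted p = 0.67). Thus of the INSIG pair, *Insig1* was called between the sexes in S and *Insig2* was not, a contrast between genes that was not itself tested.

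Of 11 uptake and transport genes, 8 were tested in S, with 3 higher in males (*Stard4*, 1.39, *Vldlr*, 0.70, and *Npc2*, 0.40) and 2 lower. Of all 11925 genes tested between the sexes in S, 1611 were higher in males and 1561 lower. The fatty acid synthesis list had 5 of 7 higher in male S, among them *Scd* (0.73 ± 0.07, adjusted p = 4.1e-11) and *Me1* (0.43, adjusted p = 0.0026). Of the efflux and storage list, 1 of 7 was higher in male S (*Abca1*, 0.78), near the 13.5% of all genes called higher there.

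**Figure D5:**
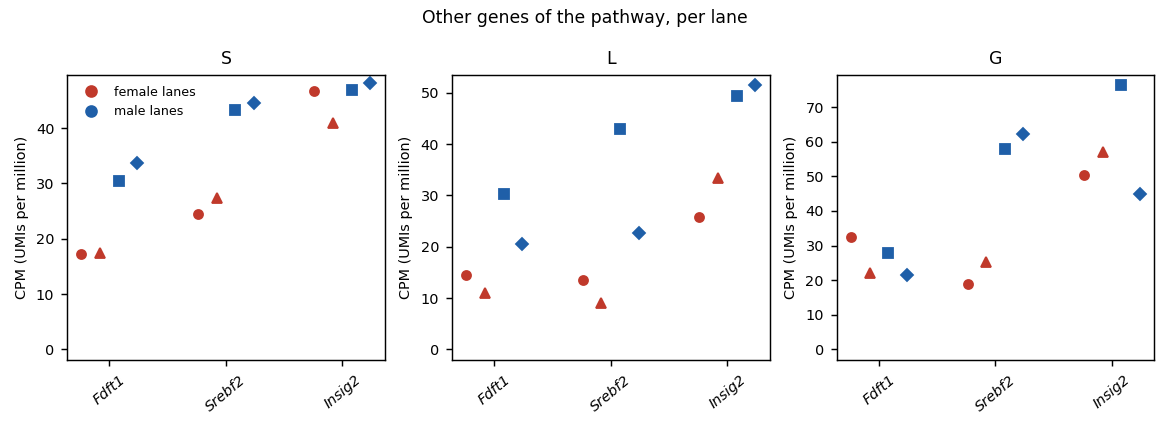
Levels in CPM (linear axis) of 3 other genes of the pathway in somatotrophs, lactotrophs and gonadotrophs, 1 point per lane (red female, blue male). In somatotrophs the male points of *Fdft1* and *Srebf2* lie above the female ones, and those of *Insig2* are 46.9 and 48.2 CPM against 46.7 and 41.0.

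Between types, the lists of the pathway moved in part with the 7 genes. Of all 13606 genes, 1569 were called higher and 691 lower in T. There, 4 of 13 further synthesis genes were higher, among them *Tm7sf2* (2.62), *Fdft1* (1.47) and *Sc5d* (1.46), and 0 were lower. Also higher were the lipoprotein receptor gene *Lrp8* (2.79), *Srebf2* (1.06 ± 0.26, adjusted p = 0.011) and 3 of 7 fatty acid synthesis genes. In S, where 3071 of all genes were called higher and 1407 lower, 6 of 13 synthesis genes were higher and 0 lower. Among the higher ones *Sc5d* stood at 0.89 ± 0.19 (adjusted p = 0.0021), beside *Srebf2* (0.52 ± 0.19, adjusted p = 0.044) of the regulators.

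In FSC, Le and EC, genes of the efflux and storage list were called higher more often than lower, and so were all genes tested. Of all 13606 genes, 3842 were called higher and 1668 lower in FSC, 3605 and 3107 in Le, and 2804 and 2524 in EC. In FSC the uptake and transport list went both ways, with 2 of 10 higher (*Lrp8*, 3.22 ± 0.33, adjusted p = 1.7e-06, and *Mylip*, 1.43, adjusted p = 5.4e-05) and 4 lower (among them *Vldlr*, -4.01 ± 0.52, adjusted p = 1.2e-05), while 6 of 9 efflux and storage genes were higher and 2 lower, among them *Apoe*, which encodes a lipid carrier (4.13), and *Cyp7b1*, an oxysterol hydroxylase (3.81). Of the 13 synthesis genes in FSC, 5 were lower and 1 higher. In Le, 7 of 9 efflux and storage genes were higher and 1 lower, as were the lysosomal genes *Lipa* (5) and *Npc2* (4.74), while 6 of 7 fatty acid synthesis genes were lower. In EC, 5 of 9 efflux and storage genes were higher and 1 lower, and so were the HDL receptor gene *Scarb1* (2.91). All of these passed an adjusted p of 0.05 by edgeR, and all genes tested had medians of 0.12 in FSC, -0.18 in Le and -0.21 in EC.

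The genes whose pattern over the 16 sums of type and sex was most like the mean of the 7 were sought among 5622 others with at least 20 CPM on average. *Srebf2* was the most alike (Pearson correlation of log2 CPM 0.901), followed by *Alg11* (0.884), *Acsl3* (0.847), *Dnaja3* (0.846), *Fdft1* (0.841), *Zdhhc20* (0.821), *Trmt112* (0.819), *Emc2* (0.818), *Habp4* (0.813) and *Vps11* (0.809). The value for *Insig2* was 0.080. Of the 7 genes themselves, *Msmo1* was closest to their mean (0.954) and *Insig1* farthest (0.652) among the 5 with enough UMIs. Each of the 7 is part of that mean, which raises its value, so these are not comparable with the values of other genes. The 16 sums come from 4 lanes, and the thinly filled T sums weigh in these values as much as the others.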

How the data were processed

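The samples were single-cell RNA-seq libraries of dispersed anterior pituitary cells, 2 lanes from 1 pool of 4 female and 2 from 1 pool of 4 male Sprague Dawley rats. The deposited values are UMI counts per gene and cell, which the authors made with Cell Ranger 2.1 (version from the submitters' processing notes) against an NCBI rat annotation extended at the 3′ ends of genes, after equalizing mapped reads between lanes. Lanes were assigned to the sexes by the numbers of cells the study gives for each. No column of values per sample was left unused.

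Cell types were rebuilt by the study's marker genes and filters, with 30 nearest neighbours for unclassified cells. This left 6846 cells where the files hold 7861. Removed were 276 mitochondrial and 328 gene or UMI outliers, 192 doublets and 207 cells of more than 1 type, groups that overlap. Also removed were 60 melanotrophs, 51 pericytes and 59 posterior pituitary cells. The 247 cells with no marker call took the most frequent type among their neighbours. They were removed only where this gave none of the types kept or where another filter applied. The names may therefore differ from the study's. UMIs were summed per type and sex for comparisons of types, and per type and lane for those of the sexes, and tested with edgeR 4.0.16 in R 4.3.3 (quasi-likelihood, TMM factors, filterByExpr, 2-sided, Benjamini-Hochberg adjustment over all genes tested, limit 0.05). Scripts were tested on simulated data. Intervals are exact (Clopper-Pearson for shares, Poisson for sums), and a count of 0 was given a limit of 3. The precision of each value is set by its UMIs, 979 to 4666 per gene in the kept cells. Alternatives were library size, DESeq2 1.42.0, no filter, other limits, cell filters and assignments, and left-out lanes. Named genes were the 7, the 4 of each pathway list with the smallest adjusted p among those called, *Srebf2* and *Insig2* throughout, and the 10 genes most alike in pattern. Some genes of the lists are not reported here by name. The genes and lists were chosen with earlier results of these data known.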

Additional observations from a re-analysis of the deposited data

Results flagged for a closer look

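In somatotrophs (S) the difference between male and female lanes was larger than in folliculostellate cells (FSC) for all 7 genes by a test of the difference itself, chosen after seeing the data (log2, S minus FSC). It was 2.1 for *Hmgcs1*, 2.47 for *Idi1*, 0.98 for *Fdps*, 0.84 for *Sqle*, 0.99 for *Cyp51*, 1.45 for *Msmo1* and 1.19 for *Insig1*. *Sqle*, the smallest of these, lost its call with no filter on low counts (0.85, adjusted p = 0.058 by edgeR), with doublets and outliers kept (0.72, adjusted p = 0.086) and with cells assigned by marker genes only (0.77, adjusted p = 0.073).

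In lactotrophs (L) the same held for 6 genes against FSC, with 2.59 for *Hmgcs1*, 2.19 for *Idi1*, 0.78 for *Fdps*, 1.56 for *Sqle*, 1.77 for *Msmo1* and 1.70 for *Insig1*. *Cyp51* differed between L and S (-1.09, L minus S).

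Cells outside the 9 types also held these transcripts. Melanotrophs, the intermediate lobe cells that make melanocyte-stimulating hormone, held 354.5 CPM summed over the 7 genes (exact 95% Poisson interval 312.5 to 400.6, 60 cells, 4 of them female). Pericytes held 309.9 CPM (255.4 to 372.6, 51 cells) and posterior pituitary cells 197.0 CPM (164.7 to 233.7, 59 cells, 4 of them female), all above the 1.16 to 2.70 CPM of erythrocytes. In pericytes *Idi1* alone made up 126.1 CPM. Lane sums of the 8 types without E ran from 84.8 CPM (L) to 795.8 CPM (T), a range that holds all of these. These groups have no replicate check, since they were summed over all lanes. The outlier and doublet filters were not applied to them.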

How the results depend on the processing

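No paired analysis was possible because the replicate numbers of the labels could not be matched to lanes, which carry none. Types were compared with sex as a term in the fit. Single genes were followed in 1 type each between types (*Fdps*, *Hmgcs1* and *Msmo1* in T, *Cyp51* and *Idi1* in S, *Insig1* in G, *Sqle* in EC) and in S between the sexes. The type was that with the gene's smallest adjusted p in the main fit, so only its strongest call was followed. Under an alternative, 82 and 82 of these values kept their direction and side of the threshold, 13 and 2 kept their direction but missed it, and 0 turned. Over all calls between types, S kept 1 of 5 with library size only and 2 of 5 by DESeq2, and T kept 5 of 5 under both. Outside S, calls between the sexes were lost more often: by DESeq2, L kept 4 of 6, FSC 1 of 2, C 0 of 1 and G 0 of 1, and FSC kept 0 of 2 without the female lane with 1868 cells. The 10 higher calls between types became 6 with library size only and 2 at an adjusted p below 0.001, and 7 to 11 with a lane left out. The 6 lower calls became 11 with no filter, 0 at 0.001, 10 with UMIs summed per lane and 1 with erythrocytes kept, and 3 to 6 with a lane left out, the 3 without the male lane with 2085 cells. The 15 male-higher calls ranged from 10 (DESeq2) to 16, and from 13 to 15 with a lane left out. The 2 female-higher calls became 1 by DESeq2, with no filter or at 0.001, and 0 to 2 with a lane left out, the 0 without the female lane with 1868 cells. The single call between L and S became 4 with library size only and 0 at 0.001. The mean share of cells with a UMI went from 40.6 to 11.2% in T, 10.9 to 3.45% in Le and 0.237 to 0% in E after thinning, and was 27.8% for T in the female lane with 1868 cells alone, 9.84% for Le and 0.357% for E in the male lane with 2047 cells alone. The causes were not tested. Depth limits T (88 cells), *Sqle* and *Cyp51* most, and pools without replicates limit every difference between the sexes.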

Other observations

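Leukocytes were not uniform in these genes. The 494 with at least 2 of the complement genes *C1qa*, *C1qb* and *C1qc*, which mark macrophages, held 114.7 CPM of the 7 genes (exact 95% Poisson interval 103.5 to 126.7), and the 49 without any held 360.4 CPM (297.8 to 432.3). The difference was spread over several steps, with *Fdps* at 28.7 against 127.4 CPM (23.3 to 35.1 and 91.4 to 172.8), *Idi1* at 20.7 against 83.9 CPM and *Cyp51* at 15.9 against 40.4 CPM, while *Msmo1* was 16.2 against 15.5 CPM. *Msmo1*, 1 of the 2 genes called lower in leukocytes, thus read alike in both groups. In the 49 cells *Msmo1* rested on 5 UMIs, with an interval of 5.04 to 36.25 CPM. *Sqle*, the other gene called lower, was 1.80 against 15.5 CPM (0.659 to 3.91 and 5.04 to 36.25), again with 5 UMIs in the 49 cells. These sums pool the lanes and have no replicate check.

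Proliferating cells, those with at least 14 of 39 mitotic genes above threshold, did not stand apart in one direction. They held 217.8 against 258.6 CPM of the 7 genes in female FSC (16 cells), 281.9 against 215.9 CPM in male FSC (19 cells), 201.5 against 177.9 CPM in female S (16 cells), 339.6 against 424.5 CPM in male S (10 cells) and 125.4 against 81.9 CPM in female L (24 cells).

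Over single S, the genes whose values went most with the summed 7 in the male lanes included *Fdft1*, in a ranking chosen after seeing the data among 6368 genes found in at least 10% of S. *Fdft1* had a correlation of 0.355 and 0.430 across the cells of the male lanes (0.183 and 0.231 in the female lanes). The 99th percentile over the 6368 genes was 0.176 and 0.201 in the male lanes, and the cytoskeletal genes *Tuba1a* (0.298 and 0.281) and *Actb* (0.236 and 0.235) were lower in the ranking. In the female lanes *Tuba1a* (0.298 and 0.3) and *Actb* (0.211 and 0.295) stood above *Fdft1*, which lay under the 99th percentile there (0.202 and 0.232). Cells of a lane differ in depth, and these values are a description.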
